A study of Homo sapiens with 11 samples.

Results

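The Krüppel-like factor (KLF) genes other than KLF4 were examined in ARPE-19 cells, an established human cell line derived from the retinal pigment epithelium (RPE), in which Klf4 or other reprogramming factors were expressed. The genes were KLF2, KLF3, KLF5, KLF6, KLF7, KLF9, KLF10, KLF11, KLF12 and KLF13, taken by symbol from the deposited table. They are 10 of its 60605 features, and 10 of 10 were tested. Stable lines expressed an open reading frame for 4 days before RNA was taken. The frame was that of GFP, a fluorescent protein used as the control (n = 3 libraries), Oct4 alone, Sox2 alone, Klf4 alone, or Oct4, Sox2 and Klf4 together, called OSK (n = 2 libraries each). The library names of all factor lines carry the label mC, which those of GFP lack, and they do not say what it stands for. In comparisons with GFP an effect of a factor cannot be told apart from one of this difference. The labels do not give the species of the frames, whether a line is a clone, or whether libraries came from separate cultures, so p-values measure the spread between these libraries, which may be technical. The comparisons ask how the cells' own KLF genes respond to Klf4, alone and inside OSK.

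KLF proteins are transcription factors that bind GC-rich and CACCC elements through C2H2 zinc fingers at their C-terminal end, and the part outside the fingers sets whether they activate or repress. KLF3 and KLF12 recruit the CtBP corepressors. KLF9, KLF10, KLF11 and KLF13 bind the SIN3A corepressor, KLF2 is a close relative of KLF4, and KLF5, KLF6 and KLF7 act largely as activators. Members can bind each other's promoters, so that one member may activate or repress another, and KLF2, KLF4, KLF6 and KLF10 are known as genes induced rapidly by serum, growth factors or shear stress.

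Values are normalised counts, gene counts that the authors scaled library by library. The libraries held 15053300 to 19791775 reads. GFP replicate 1 and OSK replicate 1 had reads on 42956 and 32493 features against 25853 to 26971 in the other 9 libraries, and results that change without them are given below. Of 405 olfactory receptor features 67.7% and 23.0% had a read in these 2 libraries, against 4.94% to 8.15% in the others. KLF4, the check of the labels, had 24205 and 22142 normalised counts in the Klf4 libraries and 24470 and 24202 in OSK. It had 124, 45.5 and 46.7 in GFP, 248 and 242 in the Oct4 line and 101 and 78.8 in the Sox2 line. The longest stretch that a member's GENCODE transcripts share exactly with those of human KLF4 was 17 bases, in KLF2. Of 15 RPE markers 12 were tested. KRT8, a simple epithelial keratin, had 15568 to 16617 normalised counts in GFP and MITF, the pigment cell regulator, had 3263 to 3603, whereas RPE65, the visual cycle isomerase, had at most 4.63 in any library. The summed level of the RPE markers was 33573 to 37258 in GFP, 26139 to 29295 in the Klf4 line, 21516 to 22199 in the Sox2 line, 18520 to 19090 in the Oct4 line and 16032 to 16315 in OSK. The 10 keratinocyte markers summed to 570 to 613 in GFP and 2467 to 2665 in the Klf4 line. Of 5 tested there 3 rose over GFP (KRT14, KRT16 and SCEL), 1 fell and 1 was not called (limma adjusted p under 0.05), where 33.5% of all genes tested were called. TP63 and KRT5, both found in basal keratinocytes, had at most 6.94 and 1.16 in the Klf4 line, while KRT14 rose by a log2 change of 5.74 (limma adjusted p = 0.000503). The 6 immune markers summed to at most 9.25 in the Klf4 line, 111 in GFP and 22.8 in OSK.

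In the Klf4 line KLF3 rose 6.56-fold over GFP, KLF13 rose 1.83-fold and KLF12 rose 1.49-fold, as ratios of mean normalised counts. KLF11 fell to 26.1% of GFP, KLF6 to 56.3%, KLF7 to 56.4% and KLF5 to 60.9%. KLF2, KLF9 and KLF10 did not pass the test. Thus 7 of 10 members were called (3 higher, 4 lower; limma adjusted p under 0.05), where 33.5% of the 18828 genes tested were called, 17.6% higher and 16% lower. The members' median log2 change was -0.43, beside -0.02 over all genes tested. The median was also below that of all genes in the other lines. It was -0.35 with Oct4, -0.47 with Sox2 and -0.89 in OSK, beside -0.02, -0.02 and -0.01. In bulk RNA a change in the share of cells that express a gene cannot be told apart from a change in RNA per cell.

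**Figure D1:**
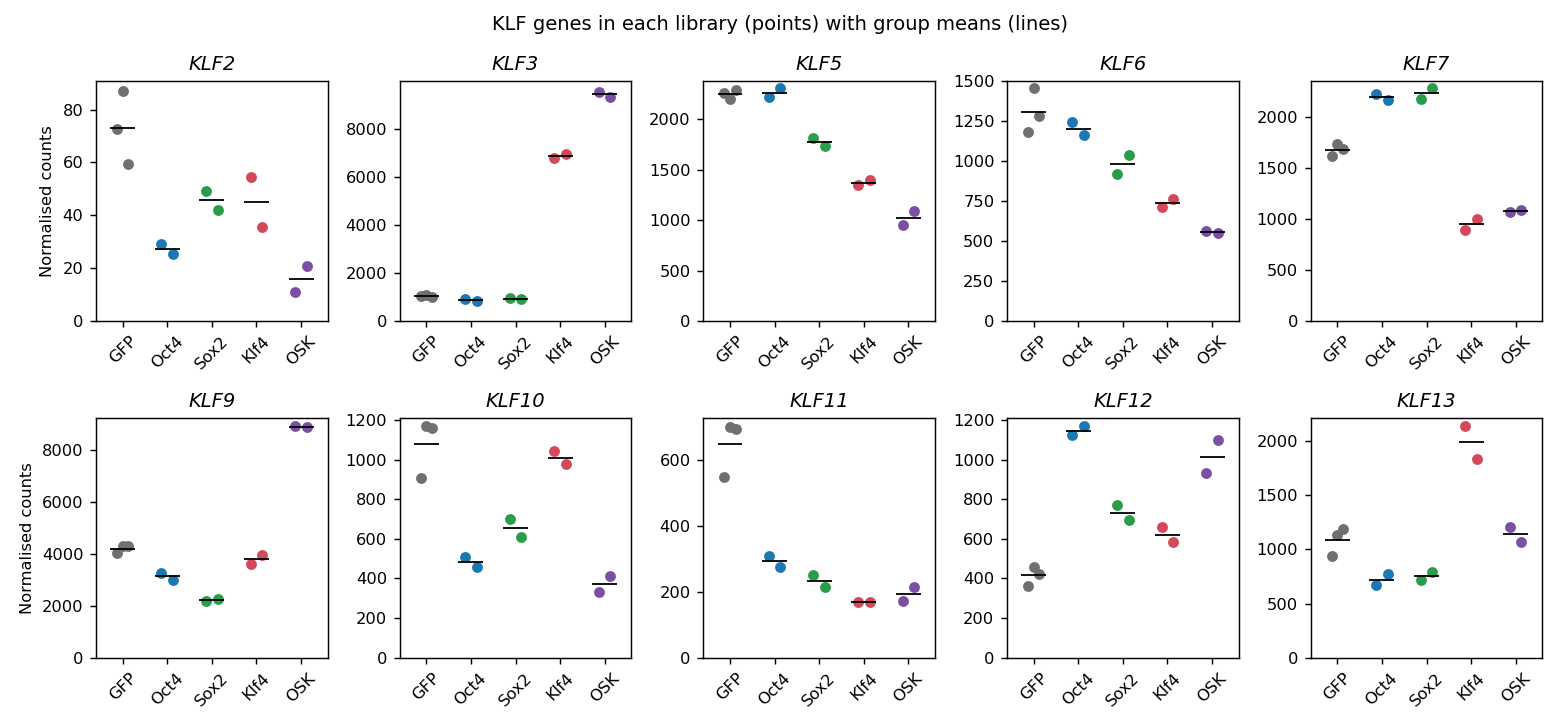
Normalised counts (vertical axis, from 0, a scale of its own for each gene) of the 10 KLF genes in the 11 libraries, by line (horizontal axis), with points for libraries and a line at each group mean. KLF3 sits between 6783 and 9555 in the Klf4 and OSK libraries and at or below 1093 in the others, and KLF9 is at 8889 and 8914 in OSK, above its other libraries.

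The promoters of KLF13, KLF6, KLF11 and KLF9 are shown because KLF4 and its relatives bind CACCC-type elements. They were picked among the members that moved in the Klf4 or OSK lines, and KLF2, KLF5, KLF7 and KLF12 have windows that are not printed. RefSeq windows of 250 bases before a transcription start (build GRCh38.p14) were at hand for 8 members, 16 windows in all, and not for KLF3 or KLF10. Capitals mark CCACNCCC on either strand. Windows are cut where an annotated exon begins.

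KLF13, which rose with Klf4, chr15:31326585-31326834, plus strand: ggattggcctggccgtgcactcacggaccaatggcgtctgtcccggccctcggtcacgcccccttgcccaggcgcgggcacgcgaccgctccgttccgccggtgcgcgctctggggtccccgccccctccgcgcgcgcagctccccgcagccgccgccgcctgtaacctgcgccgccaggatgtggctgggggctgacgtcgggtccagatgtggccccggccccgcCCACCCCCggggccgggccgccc
KLF6, which fell, chr10:3785282-3785459, minus strand: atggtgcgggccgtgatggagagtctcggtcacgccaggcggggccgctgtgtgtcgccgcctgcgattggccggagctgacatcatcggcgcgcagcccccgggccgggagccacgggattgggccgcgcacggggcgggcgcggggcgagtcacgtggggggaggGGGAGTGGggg
KLF11, which fell, at the second of its 2 windows, chr2:10043971-10044174, plus strand: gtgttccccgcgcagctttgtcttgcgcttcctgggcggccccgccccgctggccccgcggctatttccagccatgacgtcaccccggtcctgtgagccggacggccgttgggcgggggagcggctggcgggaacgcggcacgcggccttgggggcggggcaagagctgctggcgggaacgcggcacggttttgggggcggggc
KLF9, which rose in OSK, chr9:70414658-70414907, minus strand: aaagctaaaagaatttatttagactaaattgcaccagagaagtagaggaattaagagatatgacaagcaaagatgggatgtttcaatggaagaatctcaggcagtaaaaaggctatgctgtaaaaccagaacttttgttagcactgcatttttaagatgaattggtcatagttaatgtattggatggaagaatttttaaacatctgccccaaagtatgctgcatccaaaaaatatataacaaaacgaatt

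CCACNCCC was found in 3 of the 16 windows (18.8%), those of KLF6 and KLF13 and 1 of the 4 windows of KLF7, against 15.7% of all 35116 RefSeq windows of that length. The shorter CACCC, which can lie inside it, was in 8 of the 16 member windows and in 54.7% of all windows. The GC box CCGCCC was also in 8 of 16, and in 42.6% of all windows. The window of KLF11 held 6 GC boxes over its full 250 bases and that of KLF9 held none of the motifs searched on both strands. Both CACCC motifs were thus about as frequent as in promoters at large, and a match describes the letters only. These counts use uncut windows, and in the KLF7 window with CCACNCCC 238 of the 250 bases lie in annotated exons. All 4 windows of KLF12 lie upstream of the KLF12 gene as annotated in GENCODE 29.

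KLF3 and KLF12 are the members that recruit CtBP. KLF3 (chr4:38664196-38701042, GENCODE 29, GRCh38) had 1047, 1093 and 1008 normalised counts in GFP and 6783 and 6973 in the Klf4 line. OSK reached 9555 and 9313. The Klf4 and OSK libraries lay far above those of GFP, Oct4 and Sox2, which did not exceed 1093. The log2 change from GFP was 2.71 for Klf4 (SE 0.07; limma adjusted p = 2.26e-13) and 3.17 for OSK (SE 0.07; limma adjusted p = 5.41e-14). By size the Klf4 change ranked 295 among the genes tested. KLF3 was slightly lower in the Oct4 line, at 910 and 822 (log2 change -0.28, limma adjusted p = 0.0037). Without Oct4 replicate 2 that change was -0.20 (limma adjusted p = 0.0756). In the Sox2 line KLF3 had 940 and 916, a log2 change of -0.18 that just passed (limma adjusted p = 0.045) and was lost in 10 of 15 alternatives, with adjusted p up to 0.204. KLF3-AS1, a gene on the opposite strand, shares 266 exon bases with KLF3 (4.22% of the exon bases of KLF3). Its means were 115 ± 3.62 (SD, n = 3) in GFP and 220 ± 15.7 (n = 2) in the Klf4 line (log2 change 0.93, limma adjusted p = 0.000148). Reads of such antisense partners cannot be told apart where strand was not used in counting.

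KLF12 was above GFP in each factor line. It had 361, 460 and 425 normalised counts in GFP, 1123 and 1171 with Oct4, 769 and 694 with Sox2, 658 and 584 with Klf4, and 932 and 1099 with OSK. No factor library overlapped the GFP libraries, and the Klf4 line had the lowest mean of the 4 lines. The log2 change was 0.58 with Klf4 (SE 0.11; limma adjusted p = 0.000487), 1.47 with Oct4, 0.82 with Sox2 and 1.29 with OSK, the last 3 with limma adjusted p of 2.29e-08, 1.13e-05 and 8.85e-08.

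Among the members that bind SIN3A, KLF11 and KLF13 changed in opposite directions in the Klf4 line and KLF9 and KLF10 were not called. KLF11, a TGF-beta inducible repressor, had 548, 703 and 695 normalised counts in GFP and 170 and 169 in the Klf4 line. The other lines were also below GFP, with 310 and 277 for Oct4, 252 and 216 for Sox2, and 173 and 216 for OSK. The log2 change was -1.92 with Klf4 (SE 0.13; limma adjusted p = 2.08e-08), -1.13 with Oct4, -1.46 with Sox2 and -1.73 with OSK, with limma adjusted p of at most 5.37e-06. The Klf4 libraries lay below every other library in KLF11. AC104794.4, annotated on the opposite strand, shares 416 exon bases with KLF11 (9.07% of its exon bases).

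KLF13, a regulator of lymphocyte and heart development, had 937, 1134 and 1193 normalised counts in GFP and 2143 and 1838 in the Klf4 line, the highest of all libraries. The change with Klf4 was 0.87 on the log2 scale (SE 0.11; limma adjusted p = 1.05e-05). In the lines of the other single factors it was lower than GFP, with 669 and 776 for Oct4 (-0.59, limma adjusted p = 0.000422) and 720 and 789 for Sox2 (-0.52, limma adjusted p = 0.000927, or 0.060 with no filter on low values). The OSK libraries, at 1204 and 1074, overlapped GFP (0.07, 95% interval -0.16 to 0.30; limma adjusted p = 0.652).

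KLF9, which responds to glucocorticoid and thyroid hormone, had 4020, 4308 and 4294 normalised counts in GFP and 3616 and 3966 in the Klf4 line. That difference of -0.15 did not pass (95% interval -0.29 to -0.01; limma adjusted p = 0.101), but it did without GFP replicate 1 (-0.18, limma adjusted p = 0.0313). KLF9 fell in the Oct4 line, to 3280 and 2985, and in the Sox2 line, to 2191 and 2254 (log2 change -0.43 and -0.92, limma adjusted p = 0.000113 and 2.03e-08). OSK had 8914 and 8889, more than any other library, and the log2 change from GFP was 1.08 (SE 0.07; limma adjusted p = 4.01e-09).

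KLF10, the TGF-beta inducible early gene, had 907, 1169 and 1159 normalised counts in GFP and 1041 and 978 in the Klf4 line, within the range of GFP. The interval of that log2 change ran from -0.34 to 0.17 (limma adjusted p = 0.627). It fell in the Oct4 line, to 507 and 456 (-1.15, limma adjusted p = 1.25e-06), in the Sox2 line, to 699 and 611 (-0.71, limma adjusted p = 0.000144), and in OSK, to 334 and 414 (-1.52, limma adjusted p = 4.68e-08).

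The activator members KLF5, KLF6 and KLF7 fell in the Klf4 line and in OSK. KLF5, an epithelial proliferation factor that shares targets with KLF4, had 2264, 2198 and 2290 normalised counts in GFP, 1349 and 1394 in the Klf4 line and 956 and 1088 in OSK. The Oct4 libraries, at 2218 and 2311, overlapped GFP, and the Sox2 libraries lay between, at 1815 and 1735. The log2 change was -0.71 with Klf4 (SE 0.07; limma adjusted p = 8.53e-07), -1.14 with OSK (limma adjusted p = 2.92e-09) and -0.34 with Sox2 (limma adjusted p = 0.000809).

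KLF6, a widely expressed early response gene, had 1181, 1457 and 1284 normalised counts in GFP, 711 and 761 in the Klf4 line and 563 and 552 in OSK. The Sox2 libraries had 921 and 1041, and the Oct4 libraries, at 1247 and 1162, overlapped GFP. The log2 change was -0.82 with Klf4 (SE 0.09; limma adjusted p = 3.31e-06), -1.22 with OSK (limma adjusted p = 2.61e-08) and -0.41 with Sox2 (limma adjusted p = 0.00161). For both KLF5 and KLF6 the GFP and Oct4 means were the highest, followed by Sox2, Klf4 and OSK.

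KLF7, known for its role in neurons and fat cells, changed in opposite directions between lines. GFP had 1617, 1732 and 1691 normalised counts, the Oct4 line 2223 and 2164 and the Sox2 line 2180 and 2284. The Klf4 line had 895 and 999 and OSK had 1065 and 1089. Libraries of Oct4 and Sox2 were all above GFP and libraries of Klf4 and OSK all below. The log2 change was -0.83 with Klf4 (SE 0.07; limma adjusted p = 1.56e-07), -0.64 with OSK (limma adjusted p = 1.75e-06), 0.38 with Oct4 (limma adjusted p = 0.00034) and 0.41 with Sox2 (limma adjusted p = 0.000151).

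KLF2, the closest relative of KLF4 and a regulator of endothelial and lymphocyte quiescence, was the least abundant member, with 10 to 86 reads per library. GFP had 72.5, 87.0 and 59.3 normalised counts and the Klf4 line 54.4 and 35.4, below the GFP libraries. The log2 change of -0.70 did not pass (95% interval -1.38 to -0.02; limma adjusted p = 0.108). KLF2 was lower in the Oct4 line, at 29.03 and 25.2 (-1.38, limma adjusted p = 0.00284), and in OSK, at 10.8 and 20.9 (-2.18, SE 0.32; limma adjusted p = 4.5e-05). The Sox2 line had 49.4 and 42.0 (-0.65, limma adjusted p = 0.12).

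**Figure D2:**
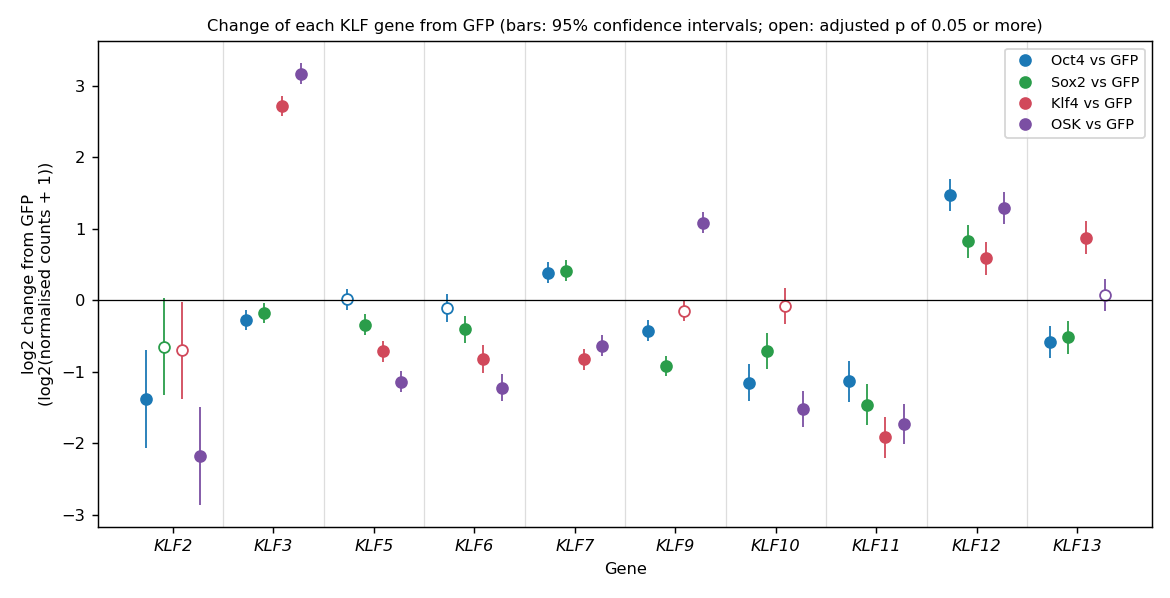
Log2 change from GFP of log2(normalised counts + 1) (vertical axis) for each KLF gene (horizontal axis) in the 4 factor lines, with 95% confidence intervals from limma and open points where the adjusted p was 0.05 or more. KLF3 stands at 2.71 with Klf4 and 3.17 with OSK and below 0 with Oct4 and Sox2, while KLF11 is below 0 and KLF12 above 0 in each line.

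The other comparisons with GFP share its libraries with the Klf4 comparison. In OSK 9 of 10 members were called, 3 higher and 6 lower (limma), where 39.7% of all genes tested were called, 19.7% higher and 20% lower. In the Oct4 line 8 were called, 2 higher and 6 lower, where 37.3% of all genes were, 20.1% higher and 17.2% lower. In the Sox2 line 9 were called, 2 higher and 7 lower, where 41.6% of all genes were, 21.7% higher and 19.9% lower. Members were called more often than those shares in each line, but they were chosen with earlier results of these data known. All but KLF2 had at least 147 reads per library, whereas the shares cover every gene that reached 10 normalised counts in 2 libraries. The difference is therefore a description and not a test of the family. KLF12 was the member that rose in each of the 4 lines and KLF11 the member that fell in each. These lines also share the mC label that GFP lacks.

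Whether a response differed with the factor was tested directly. The Klf4 line differed from the Oct4 line in 9 of 10 members, 4 higher and 5 lower (limma), where 41.7% of all genes were called, 20% higher and 21.8% lower. It differed from the Sox2 line in 8 of 10, 4 higher and 4 lower, where 40.8% were called, 20.7% higher and 20.1% lower. For KLF3 the log2 difference in favour of the Klf4 line was 2.99 from Oct4 and 2.89 from Sox2 (limma adjusted p = 1.29e-13 and 1.24e-13) and KLF13 by 1.46 and 1.40 (limma adjusted p = 5.21e-08 and 8.89e-08). KLF7 was lower with Klf4 than with Oct4 and Sox2 by log2 differences of -1.21 and -1.24 (limma adjusted p = 2.63e-09 and 1.98e-09). KLF5 was lower with Klf4 as well (-0.72 and -0.37), and so was KLF6 (-0.71 and -0.41), with limma adjusted p of at most 0.00318. The KLF6 difference from Sox2 was lost without Sox2 replicate 2 (-0.32, limma adjusted p = 0.0538) and with no filter on low values (limma adjusted p = 0.0634).

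Against Oct4 and Sox2, KLF10 was higher in the Klf4 line by 1.07 and 0.63 (limma adjusted p = 5.86e-06 and 0.00102; the latter 0.0639 with no filter on low values), and KLF9 by 0.28 and 0.77 (limma adjusted p = 0.00684 and 4.11e-07). The KLF9 difference from Oct4 was 0.21 without Oct4 replicate 2 and without Klf4 replicate 2, and did not pass (limma adjusted p = 0.0887 and 0.0871). KLF11 was lower with Klf4 than with Oct4 (-0.79, limma adjusted p = 0.000396). Its difference from Sox2 (-0.46, limma adjusted p = 0.0198) was lost in 5 of 14 alternatives, among them leaving out Sox2 replicate 1 (-0.35, limma adjusted p = 0.17) or either Klf4 library (limma adjusted p = 0.0699 and 0.0717). KLF12 was lower with Klf4 than with Oct4 (-0.89, limma adjusted p = 1.31e-05). Its difference from the Sox2 line, -0.24, did not pass (95% interval -0.48 to 0.01; limma adjusted p = 0.122).

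Mean KLF4 RNA in OSK was 105% of that in the Klf4 line (log2 difference 0.07, 95% interval -0.59 to 0.74; limma adjusted p = 0.907). The comparison of OSK with the Klf4 line uses no GFP library and asks how the members differ when Oct4 and Sox2 are expressed with Klf4. Of the 10 members 8 differed (3 higher, 5 lower; limma), where 21.5% of all genes were called, 9.56% higher and 11.9% lower. KLF9 was 2.35-fold higher in OSK (log2 difference 1.23, SE 0.07; limma adjusted p = 1.04e-08), KLF12 was 1.64-fold higher (0.71, limma adjusted p = 0.000323) and KLF3 1.37-fold higher (0.46, limma adjusted p = 0.000245). KLF10 was at 37.0% of the Klf4 line (-1.44, SE 0.13; limma adjusted p = 7.26e-07), KLF13 at 57.2% (-0.80, limma adjusted p = 0.000104) and KLF5 at 74.5% (-0.43, limma adjusted p = 0.000637). For KLF13 the OSK mean was close to that of GFP, and for KLF10 the OSK libraries were the lowest of all.

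KLF6 was at 75.7% of the Klf4 line (-0.40, limma adjusted p = 0.00798), but not detectably lower without Klf4 replicate 2 or OSK replicate 2 (limma adjusted p = 0.0679 and 0.0603), or with no filter on low values (limma adjusted p = 0.127). KLF2 was at 35.4% (-1.48, SE 0.35; limma adjusted p = 0.00585), on few reads. Without Klf4 replicate 1 its difference was -1.18 and without OSK replicate 1 it was -1.04 (limma adjusted p = 0.0866 and 0.0857), and with no filter on low values the adjusted p was 0.0834. KLF7 and KLF11 did not differ detectably between OSK and the Klf4 line. Their 95% intervals were 0.03 to 0.35 and -0.12 to 0.50 (limma adjusted p = 0.0945 and 0.427).

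The OSK change from GFP was then compared with the log2 changes of Oct4, Sox2 and Klf4 alone added together. It differed for 5 of 10 members, 3 above the sum and 2 below (limma), where 35.9% of all genes tested were called, 15.6% above and 20.3% below. KLF11 lay furthest from the sum. Its single-factor changes add to -4.52 and OSK was at -1.73, a difference of 2.78 (SE 0.27; limma adjusted p = 8.08e-07). KLF9 summed to -1.50 but was at 1.08 in OSK, on the other side of GFP (2.58, SE 0.14; limma adjusted p = 1.38e-09). KLF12 fell short of its sum of 2.87, at 1.29 (-1.58, SE 0.21; limma adjusted p = 2.62e-05). GFP is the reference of each summed change, so an offset particular to the GFP line weighs more in the sum than in OSK. Whether it contributed for KLF11, below GFP in each line, or KLF12, above GFP in each line, was not tested. KLF3 exceeded its sum of 2.26 by 0.91 (SE 0.13; limma adjusted p = 6.06e-05) and KLF7 lay below a sum of -0.03 by a difference of -0.61 (SE 0.14; limma adjusted p = 0.00255).

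For KLF2, KLF5, KLF6, KLF10 and KLF13 no departure from the sum was detectable, with differences from -0.09 for KLF5 to 0.55 for KLF2. Without GFP replicate 1 the differences of KLF10 and KLF13 passed (0.67 and 0.51, limma adjusted p = 0.0176 and 0.0402). GFP replicate 1 had the lowest GFP value of both genes.

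**Figure D3:**
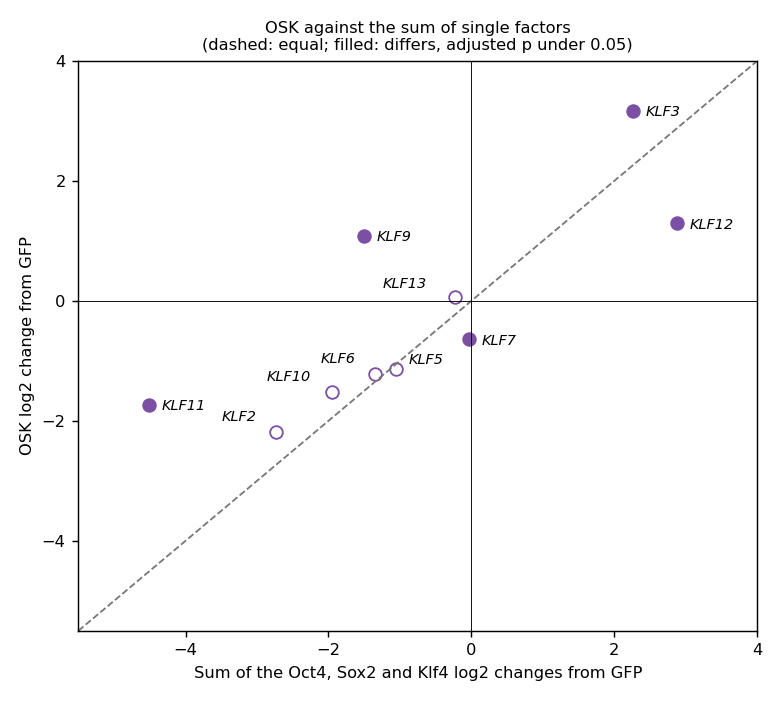
OSK log2 change from GFP (vertical axis) against the sum of the Oct4, Sox2 and Klf4 log2 changes (horizontal axis) for the 10 KLF genes. The dashed line marks equality, filled points differ from it (limma adjusted p under 0.05), and KLF9 and KLF11 lie 2.58 and 2.78 above it.

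Levels were compared between members as mean normalised counts per kb of exon. KLF9 and KLF5 led in GFP, with 813 and 578 per kb. KLF10 (269), KLF6 (213), KLF7 (181) and KLF3 (167) followed, and KLF12 (38.0) and KLF2 (36.1) were lowest. In the Klf4 line KLF3, at 1092 per kb, was first, ahead of KLF9 (733) and KLF5 (352), having been the sixth in GFP. In OSK KLF9 (1720) and KLF3 (1498) stood far above KLF5, the next, at 263. KLF4 itself had 6333 per kb in the Klf4 line and 6651 in OSK, above each member. The lengths are the union of annotated exons, so genes with long unused exons read low on this scale.

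**Figure D4:**
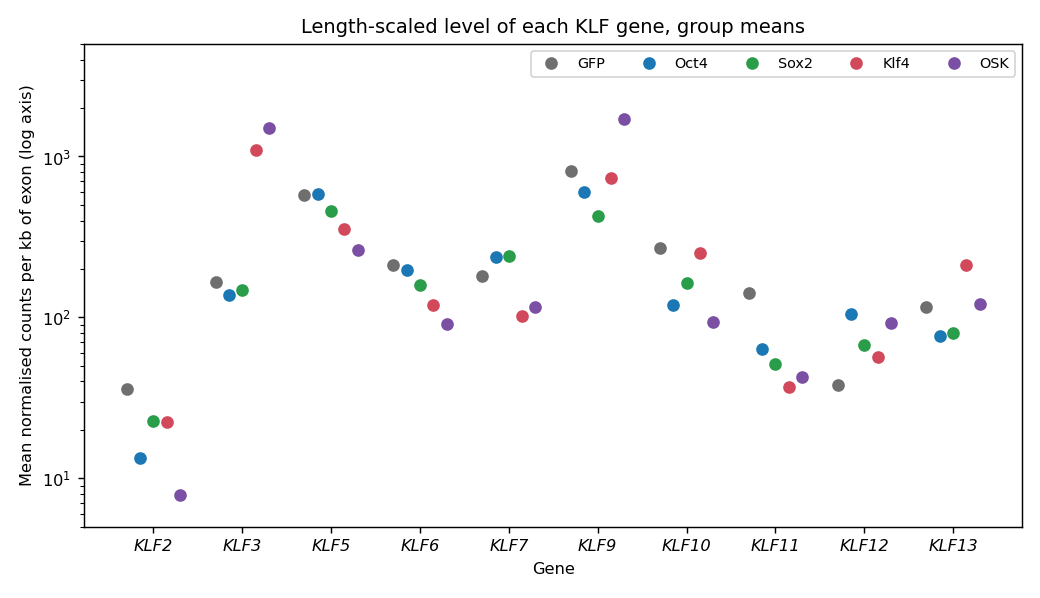
Mean normalised counts per kb of annotated exon (vertical log axis) of each KLF gene (horizontal axis), 1 point per line. KLF3 goes from 167 in GFP to 1092 in the Klf4 line and 1498 in OSK, and KLF2 is the lowest member in each line.

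Of the 7 KLF genes that are neither KLF4 nor members, 3 were tested. KLF15, a metabolic regulator, fell in the Klf4 line, from 288 ± 30.7 (SD, n = 3) to 138 ± 30.5 normalised counts (n = 2; log2 change -1.07, limma adjusted p = 3.57e-05). The Sox2 line had 127 and 116 normalised counts of KLF15, not detectably different from the Klf4 line (log2 difference 0.17, 95% interval -0.17 to 0.52; limma adjusted p = 0.431). The Oct4 line had 422 and 354 and OSK 219 and 202. KLF8 and KLF16 were not called in the Klf4 line (limma adjusted p = 0.0889 and 0.447). The 4 that were not tested had at most 12.9 normalised counts in GFP replicate 1 and 3.25 elsewhere. Of the related SP factors, which bind GC boxes, 6 of 9 were tested. With Klf4 SP2 (0.28, limma adjusted p = 0.012) and SP1 (0.27, limma adjusted p = 0.00441) rose and 4 did not pass, a share near the 33.5% of all genes called.

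Cofactors and regulators of KLF proteins moved in both directions. Of 14 cofactors 3 rose and 6 fell with Klf4 (median -0.03, all genes -0.02; limma), where 33.5% of all genes tested were called. The acetyltransferase gene KAT2B rose (1.53, limma adjusted p = 2.76e-08), while FHL3, which binds KLF3, and SAP30 of the SIN3 complex fell (-1.08 and -1.03, limma adjusted p = 7.5e-05 and 3.06e-07). In OSK SAP30 was higher than in the Klf4 line by 1.40 (limma adjusted p = 5.47e-08). Of 9 genes for KLF protein turnover 2 rose and 1 fell, a share near the 33.5% of all genes called, with BTRC at 0.49, STUB1 at 0.23 and FBXW7, a ubiquitin ligase subunit that targets KLF5, at -0.36 (limma adjusted p from 8.99e-05 to 0.0347). The MEKK3, ERK5 and MEF2 route drives KLF2 and KLF4. Of 8 genes that belong to it or regulate it, 3 rose with Klf4 and none fell, again near the 33.5% of all genes called. MEF2D (0.44) and MAP3K3 (0.43) led (limma adjusted p = 0.000236 and 0.000304). The third was KRIT1 (0.35, limma adjusted p = 0.0388), which restrains MEKK3, so the 3 do not point in 1 direction for the route.

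Gene groups that share inducers with KLF members were read beside them, where 33.5% of all genes tested were called with Klf4 and 41.6% with Sox2. Of 16 immediate early genes 2 rose and 10 fell with Klf4 (median log2 change -0.97, all genes -0.02; limma). EGR1 (-4.14) and FOSL1 (-2.28) fell and JUNB rose (1.91), with limma adjusted p of at most 1.93e-07. The immediate early genes also fell more often than they rose in the other lines. With Oct4 9 fell and 3 rose, with Sox2 8 fell and 4 rose, and in OSK 10 fell and 3 rose (limma). Of all genes tested 37.3% were called with Oct4 and 39.7% in OSK. Of 10 early TGF-beta targets 1 rose and 6 fell with Klf4, among them CCN2 (-1.66) and TGFBI (-1.09; limma adjusted p of at most 0.000409). With Sox2 5 of these targets rose, 3 fell and 2 did not pass (median 0.15, all genes -0.02; limma). Of 8 glucocorticoid response genes 4 rose and 2 fell with Klf4. FKBP5 rose by 2.64 with Klf4 and 1.16 with OSK and TSC22D3 by 1.68 and 2.08 (limma adjusted p of at most 8.71e-07), beside KLF9 at -0.15 and 1.08. ZBTB16 fell with Klf4 (-1.35, limma adjusted p = 0.0143).

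Proliferation genes rose in the Klf4, OSK and Sox2 lines. All 17 listed were higher in the Klf4 line (median 2.02, all genes -0.02; limma), 16 in OSK and 13 with Sox2. Of all genes tested 17.6%, 19.7% and 21.7% were higher in these lines. The changes with Klf4 were led by MKI67 (3.45) and TOP2A (3.12), and the summed level of the 17 genes was 12537 to 14133 normalised counts against 4580 to 4872 in GFP. In OSK it was 12368 to 12835 and in the Sox2 line 7593 to 7764. The part of growth state in the KLF changes was not tested.

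For the member that rose most and the member that fell most with Klf4, the genes with the most similar profile over the 11 libraries were listed among 18827 others. Closest to KLF3 were RIC8B (Pearson r = 0.993), the keratin gene KRT13 (r = 0.991) and the chemokine receptor gene ACKR3 (r = 0.988). KRT13 had 28.8 to 59.3 normalised counts in GFP, 1422 to 1469 in the Klf4 line and 2913 to 3832 in OSK. Closest to KLF11 were HNRNPL (r = 0.976), MEX3B (r = 0.970) and POLR1A (r = 0.967). MEX3B changed by -1.69 with Klf4, while HNRNPL and POLR1A changed by only -0.43 and -0.38. Many genes were nearly as close, since 90 had r over 0.95 with KLF3 and 11 with KLF11. Among members the closest pair over the 11 libraries was KLF5 and KLF6 (r = 0.968), and the most opposed was KLF3 and KLF7 (r = -0.938). These values rest on 5 groups of libraries that share the same lines and are descriptions.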

How the data were processed

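Polyadenylated RNA of 11 ARPE-19 libraries was sequenced, and groups were taken from the sample titles. STAR 2.7.1a and featureCounts 1.6.2, with builds GRCh38 and GRCm38 among others, are named in the submitters' processing notes. Annotation, strand and the kind of normalisation are not given in the sources used here. The deposited values are a signal, gene counts that the authors divided by a factor per library: every value up to 200 was a whole number of reads once divided by what 1 read is worth (100%, tolerance 0.0061), from which reads were recovered by division. In GFP replicates 1 and 2 that value, 0.993 and 1.01, is so near 1 that the lowest values alone do not show it.

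The main test was limma 3.58.1 (R 4.3.3) on log2(value + 1), which understates changes of low genes, over the 18828 genes that reached 10 in 2 or more libraries. All 11 libraries entered 1 fit with a mean per group (6 residual and 9.21 prior degrees of freedom). The Benjamini-Hochberg adjustment covered all genes tested, and calls were made under 0.05. Log2 changes, standard errors and 95% intervals come from that fit. The fit was run on simulated counts with the same relative spread for every gene and no library that stood apart. Such a run does not test how libraries that stand apart affect the fit.

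Alternatives were edgeR 4.0.16 (TMM or median-of-ratios factors) and DESeq2 1.42.0 on recovered reads, TMM scaling, pseudocounts of 0.5 and 5, other filters, only the compared groups, a block for replicate number, and fits without each library in turn. Exon lengths and positions came from GENCODE 29 (GRCh38), promoters from RefSeq. The rule for named genes took all members and KLF4, at most 3 genes of each other list with the largest change among those called with Klf4, and the 3 genes most like the member that rose most and the one that fell most. A gene that the rule took from the TGF-beta list is not reported here. Genes given in other lines, and markers given as levels, were named after their values were seen. Members and lists were chosen with earlier results of these data known. The listed pluripotent, fibroblast and endothelial markers are summarised in the closing section.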

Additional observations from a re-analysis of the deposited data

How the results depend on the processing

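Each member's log2 change was repeated under the alternatives, 1232 repeats of 80 values. Of these 1191 kept direction and side of the threshold, 28 lost and 4 gained a call, and 9 changed sign. None of the sign changes was in a called value: KLF13 in OSK against GFP went to -0.03 without GFP replicate 1, -0.01 without OSK replicate 1 and -0.12 without both (an alternative added after seeing the data), with a highest value of 0.15 over libraries left out. KLF5 in Oct4 ranged from -0.021 without Oct4 replicate 2 to 0.038, and was -0.0084 without GFP replicate 2. KLF2 between Klf4 and Sox2 went to 0.06 without Sox2 replicate 1 and 0.25 without Klf4 replicate 2 (lowest -0.35). Against the sum KLF6 ranged from -0.037 without GFP replicate 2 to 0.27, and KLF5 from -0.19 to 0.00043 without OSK replicate 1. Without a filter on low values 5 members in place of 8 differed between Klf4 and Sox2, where all genes called fell from 7673 to 5559. The count of all genes called also fell from 6315 to 3922 (Klf4), from 4049 to 2138 (OSK against Klf4) and from 6762 to 4439 (OSK against the sum). Requiring a mean of at least 50 removed KLF2. Leaving out a library of a factor line leaves 1, which is then assumed to vary like the other groups.

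Same-numbered libraries deviated together (r over 0.1) only between GFP and OSK (r = 0.435 for replicate 1, which holds the 2 libraries that stand apart, and 0.310 for replicate 2), and the other values, of which those between groups of 2 mirror each other, ran from -0.069 to 0.042. The numbers were therefore not taken to pair the samples. With the replicate block, in which GFP replicate 3 has a term of its own and drops out, 7 members were called in Klf4, 9 in OSK, 8 in Oct4 and 8 in Sox2 against GFP. In the same order 5322, 6469, 6072 and 7051 of all 18828 genes tested were called. With 10 reads at the lowest, KLF2 is limited by depth, and the other members had at least 147.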

Other observations

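Other marker lists were read for cell state, where 33.5% of all genes tested were called with Klf4 and 39.7% in OSK. Of 10 fibroblast and mesenchymal markers 7 were tested and 4 fell with Klf4 (limma), among them PDGFRA (-2.24), FAP (-1.80) and COL1A1 (-1.72), with limma adjusted p from 7.72e-06 to 0.0419. Their summed level was 21121 to 26013 normalised counts in GFP, 16157 to 16290 in the Klf4 line and 11322 to 12434 in OSK. Of 10 pluripotency markers 8 were tested and none was called with Klf4 or rose in OSK, where 3 fell. Of 7 endothelial markers 4 were tested and KDR fell with Klf4 (-0.79, limma adjusted p = 7.42e-06).

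Keratinocyte genes differed between the Klf4 line and OSK, in both of which KLF3 rose. Of 5 keratinocyte markers tested 3 were lower in OSK than in the Klf4 line and 2 were not called (limma), where 21.5% of all genes tested were called. KRT16 had 1289 to 1317 normalised counts in the Klf4 line, 20.9 to 53.1 in OSK and at most 23.8 in GFP. SCEL had 531 to 758, 10.8 to 14.3 and at most 2.98, and KRT14 had 111 to 147, 2.20 to 3.25 and at most 12.9. KRT13, close to KLF3 over the libraries, was instead highest in OSK. Of the 12 RPE markers tested 2 rose and 4 fell with Klf4, 1 rose and 10 fell in OSK, 1 rose and 9 fell with Oct4, and 6 fell with Sox2 (limma). In the same order 33.5%, 39.7%, 37.3% and 41.6% of all genes tested were called. RDH5 rose with Klf4 (2.60, limma adjusted p = 3.25e-08) while PMEL (-2.0, limma adjusted p = 1.02e-06) and TYRP1 (-0.65, limma adjusted p = 0.0144) fell.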
